A study of Mus musculus with 7 samples.

Results

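The genes described here are 10 genes of MHC class I antigen presentation, out of 23725 gene IDs counted in osteoblasts of lung tumor-bearing and tumor-free mice. They are the heavy chain genes H2-Q4, H2-Q7, H2-K1, H2-D1 and H2-T23, the light chain gene B2m, the peptide transporter genes Tap1 and Tap2, the tapasin gene Tapbp, and Nlrc5, which encodes the transcriptional activator of the pathway. They were listed by symbol, and the set was chosen by measured values, namely the high count of H2-Q4, so the level of H2-Q4 and its rank are given as a description with no test. All 10 had a row in the count tables: 7 had at least 1 count, 3 (Tap1, Tap2 and Nlrc5) had 0 counts in every library, and 4 (H2-Q4, H2-T23, H2-D1 and Tapbp) passed the filter on low counts and were tested.

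All mice, controls included, were male KP-Ocn-GFP animals on the C57BL/6 background. They carry KrasLSL-G12D/WT and p53Flox/Flox alleles, which give lung tumors once adenoviral Cre (AdCre) is delivered into the trachea, and an osteocalcin (Ocn) GFP reporter that marks osteoblasts. The 4 tumor-bearing mice were taken 14 weeks after AdCre. The labels call the 3 others tumor-free and do not say what they received. The age was 23 weeks for replicate 4 of the tumor-bearing and replicate 3 of the tumor-free mice, and 31 weeks for all others. The design text says that age, sex and litter were matched, but the labels used here give no litter. From each mouse 2000 GFP+ CD45-CD31- cells, also negative for the erythroid surface marker, were sorted from collagenase-digested bone pooled with lineage-depleted marrow, and a 3′-end CEL-Seq library was sequenced, 1 library per mouse. The sort depends on the Ocn promoter and takes cells from all bones together, so a library averages over the stages and sites at which that promoter is active.

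Library totals ran from 77127 to 169774 counts, a 2.2-fold range, and the highest count of any gene in a library was 282 to 303. The osteoblast genes Col1a1 (23 to 96 counts per library) and Runx2 (7 to 35) were counted in every library. So were Sparc (14 to 70), Col1a2 (11 to 31), Ibsp (10 to 51) and Phex (5 to 27), with Spp1 at 1 to 14 and Alpl at 1 to 7. The osteocalcin gene Bglap had 0 to 2, Bglap2 0 to 1, Sp7 0 to 2 and Dmp1 0 to 2. Of the leukocyte markers listed, Ptprc (CD45) had 0 to 2 counts, and 7 of 19 were at 0 in all libraries, among them Lyz2 and Cd79a. Ms4a6c (150 to 244) and Cxcr2 (143 to 229) were high in both groups. Itgam (19 to 45), Cd3g (5 to 43) and Csf1r (8 to 24) were also counted in every library, and the remaining ones had at most 8 counts. The summed leukocyte list was 3240 to 4305 CPM (counts scaled to library size) in tumor-bearing and 3720 to 4020 CPM in tumor-free libraries. Pecam1 (CD31) was at 0. In a library of sorted cells, fewer cells that express a gene and less of its RNA per cell cannot be told apart.

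An MHC class I molecule is a polymorphic or near-invariant heavy chain held together with beta-2-microglobulin, and it displays short peptides from inside the cell to CD8 T cells and natural killer cells. Peptides cut by the proteasome are pumped into the endoplasmic reticulum by the TAP1-TAP2 transporter and fitted to the groove by tapasin with its chaperones, and in the absence of light chain or peptide the heavy chain is poorly displayed. Interferons raise the whole pathway, in part through IRF1, and NLRC5 binds the shared promoter of classical class I, light chain and transporter genes through a protein complex that also carries RFX, CREB and NF-Y factors. In C57BL/6 mice H2-K1 and H2-D1 are the classical heavy chains of nearly all cells, and H2-Q, H2-T and H2-M genes are the less polymorphic class Ib heavy chains. Osteoblasts, like most nucleated cells, carry class I and can so be read by CD8 T cells.

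The promoters of H2-Q4, H2-D1, H2-K1 and B2m are shown first because the 3 heavy chain genes hold the same kinds of motif and had very different counts. Each line is the 250 bases before the first start listed for the gene in a RefSeq promoter table, on the coding strand (GRCm38.p6, the assembly of mm10), with motif letters in capitals. That start coincides with the annotated gene start in H2-Q4, H2-D1, H2-T23, B2m, Tap1 and Tapbp, but lies 15 bases inside the span in H2-Q7 and 272 bases inside it in H2-K1, so the H2-K1 window is within the annotated gene. The motifs are the interferon-stimulated response element (ISRE) core (GAAA, any 2 bases, GAAA), a class I form of that element TTTCACTTC, the kappaB-like motif GGGANNNCC, the CRE-like motif TGACG and the NF-Y motif CCAAT, each on either strand. The class I form is not an instance of the core and was added after these promoters had been seen. H2-Q4 is at chr17:35379367-35379616 on the plus strand, H2-D1 at chr17:35262844-35263093 on the plus strand, H2-K1 at chr17:34000348-34000597 on the minus strand and B2m at chr2:122147437-122147686 on the plus strand.
H2-Q4: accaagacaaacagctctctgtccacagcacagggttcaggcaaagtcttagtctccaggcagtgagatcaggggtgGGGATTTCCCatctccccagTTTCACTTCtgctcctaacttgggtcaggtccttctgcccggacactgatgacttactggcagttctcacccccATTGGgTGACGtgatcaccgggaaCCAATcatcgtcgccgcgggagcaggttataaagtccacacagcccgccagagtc
H2-D1: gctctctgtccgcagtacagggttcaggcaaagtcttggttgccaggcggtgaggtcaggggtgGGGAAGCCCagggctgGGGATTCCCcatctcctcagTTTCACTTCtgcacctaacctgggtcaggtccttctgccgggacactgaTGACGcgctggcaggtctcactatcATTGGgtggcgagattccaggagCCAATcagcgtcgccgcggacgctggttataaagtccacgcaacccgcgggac
H2-K1: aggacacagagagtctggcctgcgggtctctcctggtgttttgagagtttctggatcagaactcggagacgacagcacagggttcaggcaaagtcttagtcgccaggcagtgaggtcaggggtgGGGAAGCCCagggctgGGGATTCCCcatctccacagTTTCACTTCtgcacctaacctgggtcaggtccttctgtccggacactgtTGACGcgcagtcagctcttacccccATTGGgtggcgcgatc
B2m: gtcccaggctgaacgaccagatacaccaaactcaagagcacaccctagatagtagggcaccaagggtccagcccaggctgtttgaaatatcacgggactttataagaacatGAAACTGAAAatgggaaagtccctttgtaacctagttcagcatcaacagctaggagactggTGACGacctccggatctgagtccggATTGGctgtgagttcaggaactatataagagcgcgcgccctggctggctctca

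In H2-Q4 the class I element lay at -153 to -145, counted in bases from that start, downstream of a kappaB-like motif read on both strands, and a CRE-like motif lay at -73 to -69, between 2 CCAAT motifs. H2-D1, H2-K1 and H2-Q7 held the same motifs, with 2 kappaB-like places each where H2-Q4 has 1. In those 3 genes the CRE-like motif came before the first CCAAT, at -101 to -97 in H2-D1. In pairwise alignments of these windows, H2-Q4 and H2-D1 had 202 identical bases of 234 aligned, or 80.8% of 250. H2-Q4 and H2-Q7 had 188 of 210 (75.2% of 250), and H2-Q4 and H2-K1 163 of 187 (65.2% of 250). Bases left unaligned lower a share of 250. These percentages therefore also depend on where each window lies and do not rank the likeness of the aligned parts. H2-T23 and H2-Q4 had 137 identical bases of 219 aligned (54.8% of 250). H2-T23 held the interferon element core and 1 CCAAT, and B2m held the core, a CRE-like motif and 1 CCAAT. Tap1 held a CRE-like motif and 1 CCAAT, and Tapbp 2 CCAAT motifs only. Of 27025 promoters of the same length, 3.04% held the interferon element core, 0.429% the class I form, 15.5% the kappaB-like motif, 17.9% the CRE-like motif and 34.5% CCAAT. The class I form, the kappaB-like motif, the CRE-like motif and CCAAT occurred together in 5 promoters (0.0185%), those of H2-K1, H2-D1, H2-Q4, H2-Q7 and Rab28. Letters that match a motif are a description of the window and not a site of binding.

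**Figure D1:**
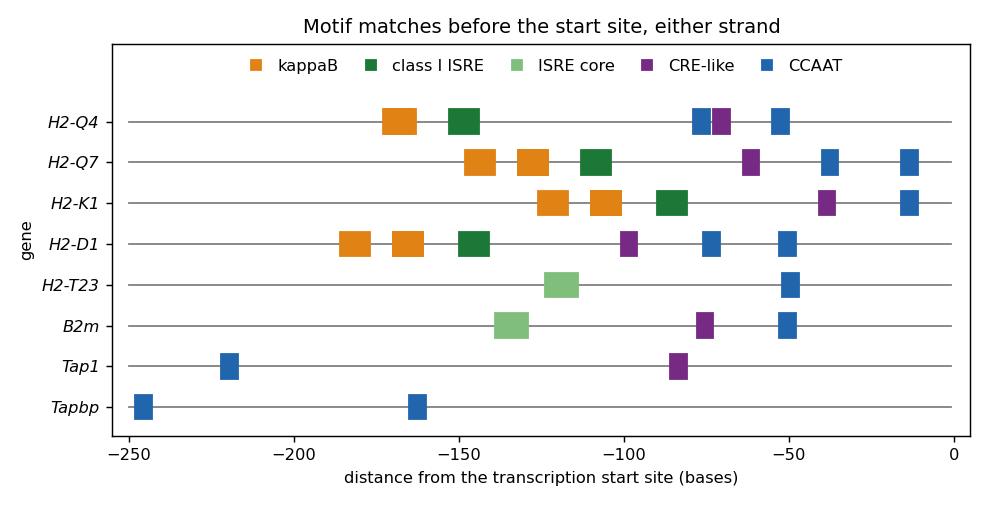
Motif positions in the 250 bases before the listed start of the 8 genes with a RefSeq promoter, in bases from that start (x axis), 1 row per gene, with 1 colour per motif. H2-Q4, H2-Q7, H2-D1 and H2-K1 hold a kappaB-like motif, then the class I element, then CRE-like and CCAAT motifs, whereas Tapbp holds CCAAT only.

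H2-Q4, a class Ib heavy chain of the H2-Q region (chr17:35379617-35384674, mm10), had 193, 224, 261 and 249 counts in tumor-bearing replicates 1 to 4 and 231, 247 and 250 counts in tumor-free replicates 1 to 3. The groups overlapped, and the 2 lowest counts were those of tumor-bearing replicates 1 and 2, which were also the libraries with the lowest totals. Summed over the 7 libraries it had 1655 counts and ranked 5 of all genes, and within a library its rank lay between 5 and 14. It made up 49.6% to 61.4% of the counts of all 10 genes in a library, which together had 345 to 513 counts.

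The level of H2-Q4 varied less between libraries than the library totals did. Its highest count was 1.35 times its lowest, whereas the totals differed 2.2-fold, H2-D1 2.35-fold and H2-T23 1.86-fold. From the smallest to the largest library, H2-Q4 therefore had 2502, 2274, 2262, 2107, 2010, 1759 and 1537 CPM before TMM scaling, each lower than the one before. The first 2 and the last 2 of these values belong to tumor-bearing libraries, and the 3 in the middle to tumor-free ones. H2-T23 had 946, 914, 744, 843, 805, 883 and 801 CPM in the same order of libraries, and H2-D1 946, 640, 480, 683, 578, 812 and 548, with no such order in either. The H2-Q4 count was 66.3% to 87.6% of the highest count of any gene in its library. No count of any gene passed 303 in any library, and whether the counts of H2-Q4 were limited by the number of distinct molecular identifiers was not tested.

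**Figure D2:**
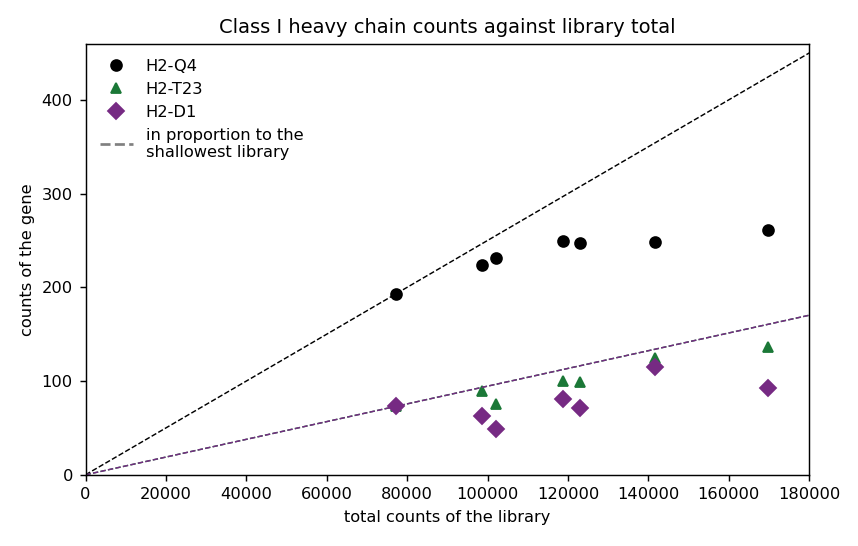
Counts (y axis) of H2-Q4, H2-T23 and H2-D1 against library total (x axis, counts) in the 7 libraries, with dashed lines in proportion to the counts of the smallest library; the lines of H2-T23 and H2-D1 coincide because both had 73 counts there. H2-Q4 stays between 193 and 261 counts while totals run from 77127 to 169774, and in the 6 larger libraries it lies below its line.

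The genes whose pattern over the 7 libraries was most like that of H2-Q4 also had high counts. The measure favours such genes, because counting noise at low counts adds to the difference, so the order is a description only. By the root mean square difference of log2(CPM + 1), each gene centred on its own mean, the 5 nearest were Zfp937 (0.0518), A630089N07Rik (0.0786), Acad9 (0.0837), Stx16 (0.0838) and A130077B15Rik (0.0841), whose counts ranked 6, 4, 10, 15 and 3 among all genes. H2-T23 came 115th with 0.214, H2-D1 561st with 0.332 and Tapbp 1363rd with 0.539. All tested genes, these 5 included, share the 7 library totals with H2-Q4, and CPM divides by those totals.

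H2-D1 and H2-T23 were the next heavy chains by count. H2-T23 (chr17:36029977-36032701) encodes Qa-1, which presents leader peptides of other class I chains to natural killer cell receptors, and had 73, 90, 136 and 125 counts in tumor-bearing and 76, 99 and 100 in tumor-free libraries. H2-D1 (chr17:35263094-35267497), a classical heavy chain, had 73, 63, 93 and 115 counts in tumor-bearing and 49, 71 and 81 in tumor-free libraries. For both the groups overlapped, with the lowest H2-D1 count in tumor-free replicate 1 and the highest in tumor-bearing replicate 4. H2-Q4 had 2.17 to 3.56 times the count of H2-D1 in tumor-bearing and 3.09 to 4.71 times in tumor-free libraries, and 1.92 to 2.64 and 2.49 to 3.04 times the count of H2-T23.

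H2-K1 and H2-Q7 were nearly absent from the same libraries. H2-K1 (chr17:33996012-34000619), the other classical heavy chain of this strain, had 0, 1, 1 and 0 counts in tumor-bearing and 3, 2 and 3 in tumor-free libraries, 10 in all. H2-Q7 (chr17:35439140-35443773), one of the genes of the Qa-2 antigen, had 0, 1, 0 and 1 counts in tumor-bearing and 1, 0 and 0 in tumor-free libraries, 3 in all. Summed counts of H2-Q4 were 166 times those of H2-K1, or 119 times per kilobase of the longest annotated transcript, a retained-intron form in both genes. A count of 0 in a library allows up to 3 counts, which is 17.7 to 38.9 CPM at these totals, for counting error only.

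Per kilobase of the longest GENCODE vM21 transcript, the mean count over the 7 libraries was 90.9 ± 8.78 (SD, n = 7) for H2-Q4, 37.8 ± 8.92 for H2-T23, 37.1 (23.3 to 54.8) for H2-D1, 3.45 ± 1.69 for Tapbp, 2.66 ± 4.18 for B2m, 0.764 ± 0.68 for H2-K1 and 0.102 ± 0.127 for H2-Q7. H2-Q4 was above H2-T23 in all 7 libraries, and H2-D1 above Tapbp in all 7. H2-T23 and H2-D1 did not differ beyond their spread, with H2-T23 the higher in 4 libraries and H2-D1 in 3. Tapbp was above B2m in 6 libraries and below it in tumor-free replicate 1, within the spread of B2m, and H2-K1 lay within the spread of B2m as well. The longest transcripts of H2-Q4, H2-T23, H2-K1 and H2-Q7 are annotated as retained-intron forms. Those of H2-D1, Tapbp and B2m are annotated as protein coding, so the lengths compare transcripts of unlike kinds. A library of transcript ends need not scale with transcript length, so counts are given beside the values per kilobase.

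**Figure D3:**
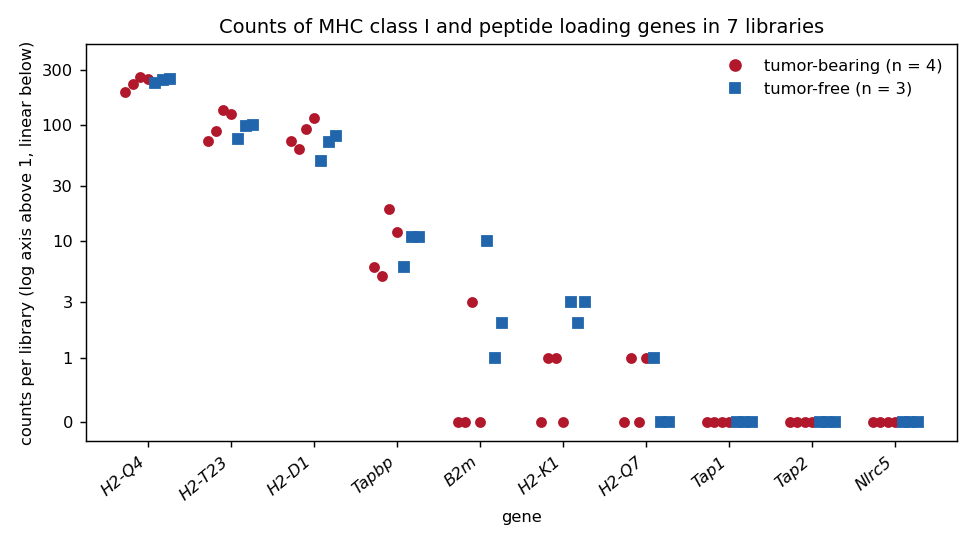
Counts per library (y axis, log scale above 1 and linear below) of the 10 genes (x axis) in 4 tumor-bearing and 3 tumor-free libraries, 1 point per library. H2-Q4 lies between 193 and 261, H2-T23 and H2-D1 between 49 and 136, and B2m, H2-K1 and H2-Q7 between 0 and 10, with Tap1, Tap2 and Nlrc5 at 0.

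Summed over the 7 libraries, the light chain gene had fewer counts than H2-Q4, H2-T23 or H2-D1 and more than H2-K1 or H2-Q7. By library it was above H2-K1 in tumor-bearing replicate 3 and tumor-free replicate 1. It was below H2-K1 in tumor-bearing replicate 2 and tumor-free replicates 2 and 3. B2m (chr2:122147687-122153082) had 0, 0, 3 and 0 counts in tumor-bearing and 10, 1 and 2 in tumor-free libraries, so 10 of its 16 counts came from tumor-free replicate 1, and the groups overlapped. That library also had the highest counts of Col1a1 (96), of the bone matrix gene Spp1 (14) and of the haemoglobin gene Hba-a2 (11); the part of these in the B2m count was not tested. Summed H2-Q4 counts were 103 times those of B2m, or 34.2 times per kilobase.

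The transporter genes had no count. Tap1 (chr17:34187556-34197225) and Tap2 (chr17:34204479-34216321), which pump peptides into the endoplasmic reticulum, were at 0 in all 7 libraries. Tapbp (chr17:33919478-33929290), which encodes the tapasin that bridges them to the heavy chain, had 6, 5, 19 and 12 counts in tumor-bearing and 6, 11 and 11 in tumor-free libraries. Its relative Tapbpl, which encodes a tapasin-like peptide editor, had 63 to 130 counts per library and was the most counted of the 11 loading genes listed. The chaperone gene Canx had 0 to 13 counts, Pdia3 0 to 9, Calr 0 to 3 and the peptide-trimming enzyme gene Erap1 0 to 2. Thus the gene with most counts in the loading list was not a subunit of the transporter or the light chain, and 2 of the 11 were at 0 throughout.

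Nlrc5 (chr8:94434335-94527272), the transactivator of class I genes, was at 0 in all 7 libraries, as were Rela and Stat2 of the 21 regulators listed. Irf1, an interferon-induced activator, had 0 to 4 counts per library. The receptor genes Ifnar1 (73 to 226 counts) and Ifngr2 (10 to 40) were the most counted of the regulators, followed by Irf9 (9 to 32) and Ifnar2 (3 to 42). The interferon-inducible proteasome subunit gene Psmb8 had 0 to 2 counts, and Psmb9 and Psmb10 had 1 count each over all libraries.

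Of 29 heavy chain genes with an ID, 10 were at 0 in all libraries and 8 passed the filter. The H2-M gene H2-M2 had 54 to 127 counts per library, H2-T3 42 to 86, H2-T10 38 to 75, H2-T24 9 to 34, and the lipid-presenting Cd1d1 3 to 12. H2-Q1 and H2-Q10 had 0 to 2 counts each and H2-Q2 also 0 to 2, whereas H2-Q6, H2-Q8 and H2-T22 were at 0. The counts of H2-Q1 and H2-Q10 were the same in every library, and whether the same reads were counted for both was not tested.

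Class II and the receptors of class I were read as neighbouring lists. Of 11 class II genes, 8 were at 0, among them H2-Aa, H2-Ab1 and H2-Eb1, and the invariant chain gene Cd74 had 1 count. H2-Eb2 had 23 to 52 counts and Ciita, the class II counterpart of Nlrc5, 2 to 13. Of 14 receptor genes, 9 were at 0, while the CD8 beta chain gene Cd8b1 had 32 to 65 counts and Cd8a 0 to 4.

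Heavy chain genes resemble each other, so reads can be split between them, lost, or counted for more than 1 of them. No source used here says how the authors' counting treated such reads. Of the stretches of 25 bases (25-mers) in its longest transcript, H2-Q4 shared 37.0% with another class I heavy chain gene, H2-Q7 39.9%, H2-K1 29.2%, H2-D1 28.7% and H2-T23 24%. Except in H2-D1, these transcripts are retained-intron forms, so the shares include intron sequence. In the 500 transcript bases before the RefSeq gene end, the share was 16.2% for H2-Q4 and between 9.66% (H2-Q7) and 19.1% (H2-D1) for the other 4, and no 25-mer of H2-Q4 there was shared with those 4. The longest H2-Q4 transcript runs 616 bases past the RefSeq gene end, and 43.5% of 25-mers in its own last 500 bases were shared. Where along these transcripts the counted reads lie was not tested. The counts of single heavy chain genes are therefore uncertain. Antisense Gm11131 overlaps H2-Q4 and was not analysed here, and A930015D03Rik, antisense to H2-T23, had 0 to 1 counts. Other members overlap protein-coding genes. Patl2 overlaps B2m by 5398 bases on the opposite strand and had 0 counts in every library. Zbtb22 overlaps Tapbp by 3422 bases on the same strand and also had 0 counts. Psmb9 overlaps Tap1 by 212 bases on the opposite strand. Non-coding genes overlap Tap2, Tapbp and Nlrc5. How reads in these overlaps were counted was not tested.

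The members with the most counts also hold sequence that many other genes carry. A match on either strand counts here, whereas the shares between heavy chain genes above are for the same strand. Of its 25-mers, H2-Q4 shared 4.39% with at least 50 other genes, H2-T23 3.28%, H2-D1 3.27%, Tapbp 1.84% and H2-Q7 0.621%, whereas Tap2 had 0.0878%, Tap1 0.0257%, and H2-K1, B2m and Nlrc5 had none. Among other genes of the lists, Tapbpl had 4.30%, H2-M2 1.90% and H2-T24 1.76%, while H2-Q10 had 1.49% and H2-T22 0.658% with 7 and 0 counts in all. Of 23035 genes with a transcript, 27.4% held at least 1 such 25-mer. Among genes with a mean count of at least 10 per library the share was 77.8%, at least 100 it was 85.9%, and under 1 it was 16.6%. Whether counts came from these stretches was not tested.

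The most widely shared 25-mer of each of the 4 tested genes is shown because it marks where in the transcript that sequence lies. Exons are those of the longest transcript, a retained-intron form in H2-Q4 and H2-T23. Numbers of other genes include those that carry the sequence on the opposite strand. In H2-Q4 the 25-mer is at chr17:35384484-35384508 (plus strand, last exon) and occurs in 136 other genes. In H2-D1 (chr17:35267237-35267261, plus strand) and H2-T23 (chr17:36030086-36030110, minus strand) it is the same sequence, in the last exon of each, found in 587 other genes. Tapbpl holds that sequence too. In Tapbp it is at chr17:33928529-33928553 (plus strand, last exon) and occurs in 686 other genes.
H2-Q4: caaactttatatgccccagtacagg
H2-D1 and H2-T23: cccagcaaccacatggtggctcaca
Tapbp: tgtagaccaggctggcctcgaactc

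H2-Q4 was also the only one of the 10 with an A-rich stretch inside its longest transcript, that is, at least 11 A in 12 bases and not in the last 100 bases. The stretch is shown with A in capitals because oligo-dT primers pair with runs of A. It lies at chr17:35384626-35384642 (plus strand, last exon), 32 bases before the RefSeq gene end and 648 bases before the end of the longest transcript. Measured to the RefSeq gene end, the stretch falls in the last 100 bases, so it meets the rule only by the longest transcript.
H2-Q4: gAAAAAAAAAAAgAAAA
Of all genes with a transcript 18.2% held such a window, of those with a mean count of at least 10 per library 40.7%, of at least 100 58.7%, and under 1 11.9%. H2-T3, H2-T10 and Tapbpl held A-rich windows as well, and so did H2-T22, which had 0 counts, and H2-M5, which had 2. Priming at this stretch was not tested.

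**Figure D4:**
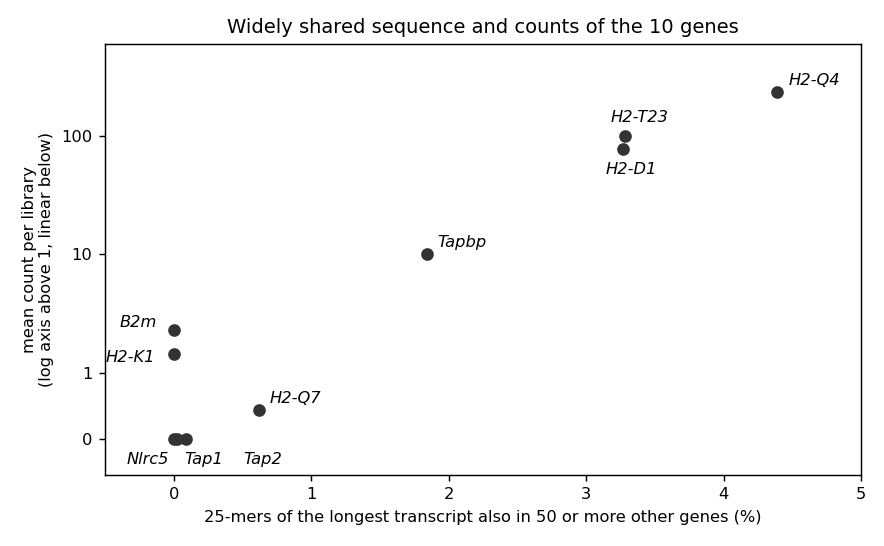
Mean count per library (y axis, log scale above 1 and linear below) of the 10 genes against the percentage of 25-mers of the longest transcript that occur in at least 50 other genes on either strand (x axis). H2-Q4, H2-T23, H2-D1 and Tapbp, at 1.84% to 4.39%, have the highest mean counts, up to 236, and the other 6 genes, at 0.621% or less, have at most 2.29.

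The comparison of tumor-bearing with tumor-free mice asks whether osteoblasts of mice with lung tumors count these genes at another level. None of the 4 tested genes passed the threshold in either direction. In the fit with age as a covariate, 0% of the 2495 tested genes were called higher and 0% lower by edgeR's quasi-likelihood test at an adjusted p of 0.05, with 23 higher and 36 lower at an unadjusted p under 0.05. DESeq2 and limma voom also called 0 genes, with 13 higher and 36 lower, and 55 higher and 43 lower, at an unadjusted p under 0.05. The lowest adjusted p of any gene was 0.997 with edgeR.

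H2-Q4 had 2647, 2354, 1466 and 1699 CPM (TMM-scaled) in tumor-bearing replicates 1 to 4 and 2247, 2097 and 2015 CPM in tumor-free replicates 1 to 3. The tumor-bearing libraries thus lay on both sides of all tumor-free ones. The means were 2042 ± 552 CPM (SD, n = 4) and 2119 ± 118 CPM (SD, n = 3), and the log2 fold change was -0.08 (SE 0.22, 95% interval -0.59 to 0.43, adjusted p = 0.997, edgeR).

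H2-D1 had 1001, 662, 522 and 785 CPM in tumor-bearing and 477, 603 and 653 CPM in tumor-free libraries, and the groups overlapped. Its means were 743 ± 203 and 577 ± 90.7 CPM, with a log2 fold change of 0.38 (SE 0.27, 95% interval -0.24 to 1.0, adjusted p = 0.997, edgeR). H2-T23 had 1001, 946, 764 and 853 CPM in tumor-bearing and 739, 840 and 806 CPM in tumor-free libraries, with overlapping groups. Its means were 891 ± 105 and 795 ± 51.4 CPM and its log2 fold change 0.16 (SE 0.18, 95% interval -0.27 to 0.59, adjusted p = 0.997, edgeR). Tapbp had 82.3, 52.6, 107 and 81.9 CPM in tumor-bearing and 58.4, 93.4 and 88.6 CPM in tumor-free libraries, means of 80.9 ± 22.2 and 80.1 ± 19.0 CPM, and a log2 fold change of 0.06 (SE 0.38, 95% interval -0.84 to 0.95, adjusted p = 0.997, edgeR). The intervals leave room for changes of either sign in all 4 genes.

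Within ages, at 31 weeks H2-Q4 had a mean of 2156 CPM in 3 tumor-bearing and 2172 CPM in 2 tumor-free mice, and at 23 weeks 1699 and 2015 CPM in 1 mouse each. H2-D1 had 729 against 540 CPM at 31 weeks and 785 against 653 CPM at 23 weeks. With 1 mouse per group at 23 weeks there is no test within that age.

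**Figure D5:**
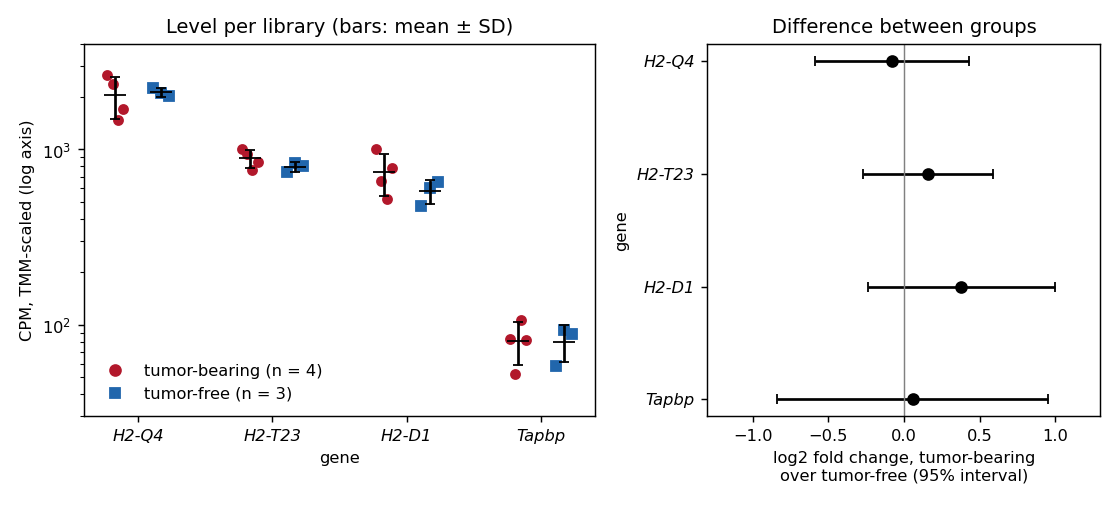
Left, CPM on TMM-scaled totals (y axis, log scale) of H2-Q4, H2-T23, H2-D1 and Tapbp in tumor-bearing (n = 4) and tumor-free (n = 3) libraries, with points for libraries and bars for mean and SD; right, log2 fold change (x axis, tumor-bearing over tumor-free) with its 95% interval. The groups overlap and the interval spans 0 for all 4 genes.

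Members below the filter were compared by their counts. H2-K1 was the only one of the 7 counted members whose groups did not overlap, with 0 or 1 counts in tumor-bearing and 2 or 3 in tumor-free libraries, or means of 4.03 ± 5.07 CPM (n = 4) and 23.4 ± 6.14 CPM (n = 3). Groups that do not overlap occurred in 3.35% of the 13344 genes with at least 1 count and in 3.53% of the 2495 tested genes. In a fit without the filter, H2-K1 had an adjusted p of 0.819 and B2m 0.819 with edgeR, and fitted fold changes at 0 to 3 counts depend on the prior count. B2m had means of 4.21 ± 8.43 CPM (n = 4) and 40.6 ± 49.2 CPM (n = 3).

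No gene of the lists passed the threshold in either direction. Of the 8 tested heavy chain genes, 6 had a log2 fold change above 0 and 2 below, with a median of 0.12, beside a median of 0.04 over all tested genes. The 2 below were H2-Q4 and H2-M2 (-0.20, SE 0.19). H2-T3 had 0.21 (SE 0.22), H2-T24 0.17 (SE 0.27) and H2-T10 0.01 (SE 0.25). The 2 tested loading genes, Tapbp and Tapbpl (0.31, SE 0.22), had a median of 0.18, which lay between 0.05 and 0.35 with single libraries left out. The 5 tested regulators had a median of -0.06, which was 0.12 without library scaling, and Irf9 had 0.53 (SE 0.33), Rfxank 0.29 (SE 0.36), Ifnar1 -0.11 (SE 0.35) and Ifngr2 -0.11 (SE 0.28).

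The 1 tested proteasome gene was Psmb7, which encodes a constitutive catalytic subunit. It had 6, 8, 6 and 12 counts in tumor-bearing and 20, 14 and 17 in tumor-free libraries, 70.5 ± 24.5 against 150 ± 39.5 CPM, and the groups did not overlap. Its log2 fold change was -1.13 (SE 0.41), with an unadjusted p of 0.0246 and an adjusted p of 0.997 by edgeR. In the class II list H2-Eb2 had 0.22 (SE 0.25). Among the receptors Klra2, a natural killer cell receptor gene, had 9, 9, 16 and 17 counts in tumor-bearing and 7, 3 and 11 in tumor-free libraries. Its log2 fold change was 0.84 (SE 0.42, adjusted p = 0.997, edgeR), with CPM that did not overlap between groups, and Cd8b1 had -0.12 (SE 0.27). The regulator Creb1 and the markers Phex, Cd4 and Hbb-bt did not overlap either. Such groups occurred in 3.53% of the 2495 tested genes and in 3.35% of the 13344 genes with at least 1 count. Of 6 tested osteoblast markers 5 were below 0, with a median of -0.48 and none past the threshold, and the summed erythroid list was 77.7 to 104 CPM in tumor-bearing and 122 to 206 CPM in tumor-free libraries. Their part in the values of the class I genes was not tested.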

How the data were processed

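RNA of sorted osteoblasts from 7 mice was measured. The authors deposited raw counts, whole numbers for each Entrez ID, with 1 file per mouse and no normalization. Per the submitters' processing notes, TopHat2 2.0.10, TopHat, SAMtools and mm10 were used. No source used here gives the counting program, annotation, strand setting or use of identifiers, so a count may be a read or a molecule. Totals were 77127 to 169774 counts. All pairs of libraries differed beyond counting noise (chi-square per degree of freedom 1.99 to 3.16).

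Groups came from the labels. In edgeR 4.0.16, low genes were removed by filterByExpr (at least 10 counts, total 15), libraries scaled by TMM and genes tested with glmQLFit (robust) and glmQLFTest in R 4.3.3 with age as a covariate. P-values were adjusted by Benjamini-Hochberg over 2495 genes at 0.05. CPM use TMM-scaled totals unless said otherwise. Symbols, promoters and coordinates came from RefSeq GRCm38.p6 and transcripts from GENCODE vM21.

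The members and lists were chosen with earlier results of these data known. Named genes were all 10 members, up to 4 genes per list with the most counts, and the 5 genes most like H2-Q4. Others named from the lists, as cell markers or for shared sequence were chosen after their values were seen. Alternatives were DESeq2 1.42.0, limma 3.58.1 voom, other scalings, filters, age and block terms, and each library left out. Some genes of the lists are not reported here.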

Additional observations from a re-analysis of the deposited data

Results flagged for a closer look

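B2m in tumor-bearing replicate 3 stood apart from its group: it had 16.9 CPM, from 3 counts, and the 3 other tumor-bearing libraries had 0. With 3 counts against an allowance of up to 3 counts for a 0, the value lies at the limit of detection. The measure flags about 1 in 20 groups of continuous values by chance, but it always flags 3 values at 0 beside 1 above 0, so here the zeros fix it.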

How the results depend on the processing

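Under 18 of 19 alternatives edgeR, DESeq2 or limma called 0 genes in either direction. Without the low count filter, 6 genes were called higher and 32 lower among 13344, and none was a member. H2-Q4 stayed between -0.24 and -0.01, H2-D1 between 0.15 and 0.44 and H2-T23 between 0.08 and 0.23 on the log2 scale under all 19. Tapbp, which was below the filter under the 5 others and computed under 14, was -0.01 with limma voom and -0.13 without tumor-free replicate 1, with 0.20 as its highest value, and the cause was not tested. The heavy chain median was -0.0013 without tumor-bearing replicate 3 and up to 0.19 with another library left out. The loading gene median of 0.18 was 0.05 to 0.38 over all 19, and 0.07 without the low count filter. With single libraries left out, its lowest values were 0.05 (tumor-free replicate 1) and 0.08 (tumor-bearing replicate 1). It was 0.35, from Tapbpl alone, when tumor-bearing replicate 4 was left out. The regulator median was 0.02 in 31-week mice only, 0.12 with the replicate block, 0.12 without library scaling, and with single libraries left out it was -0.12 (tumor-free replicate 1), 0.00047 (tumor-bearing replicate 1), 0.17 (tumor-bearing replicate 2), 0.39 (tumor-free replicate 2) and 0.03 (tumor-free replicate 3). Without library scaling the median of all genes moved from 0.04 to 0.14. With single libraries left out, the counts of called genes were 0 in each direction. Deviations from group means correlated at -0.199, -0.117 and -0.123 in same-numbered libraries, and at -0.249 to 0.239 in differently numbered ones. These values cannot show which mice were matched by litter. The replicate number as a block joined tumor-bearing replicate 3 (31 weeks) with tumor-free replicate 3 (23 weeks). It left out tumor-bearing replicate 4, so it was not a pairing by age. With this block 0 genes were called of 2281, and H2-Q4 had -0.07, H2-D1 0.23 and H2-T23 0.12. Median ratios of H2-Q4 counts stayed at 2.49 to 3.29 over H2-D1, 2.49 to 2.53 over H2-T23 and 22.6 to 27.5 over Tapbp. The counts of B2m, H2-K1, H2-Q7, Tap1, Tap2 and Nlrc5 are too few to show either absence or a difference. Why they were so few was not tested.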
